A study of Mus musculus with 80 samples.

Results

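Regulators of G-protein signalling (RGS) are described here for 10 genes, Rgs2, Rgs4, Rgs7, Rgs8, Rgs10, Rgs12, Rgs14, Rgs16, Rgs17 and Rgs20, chosen by name from the 27179 genes of the count table. All 10 members were among the 13016 genes that reached at least 5 CPM (counts scaled to the total of the library) in at least 8 libraries. RNA-seq was performed on the hypothalamus, cerebellum, hippocampus, neocortex and amygdala of C57BL/6 females (C57BL/6J in the study's methods), 8 virgin and 8 primiparous (having raised a first litter). Primiparous females were paired with a male at 8 weeks of age, the male was removed after 2 weeks, and tissue was taken, per the labels, 3 weeks after weaning, while the study's methods describe a later harvest. Virgin females were age-matched, were kept with other unmated females and met no male, so mating, cohabitation, pregnancy, lactation and pup care cannot be told apart. Each library was made from 1 animal, from the whole hypothalamus or the left side of another region, and 77 of 80 libraries were used, with 8 virgin and 8 primiparous libraries in the hypothalamus and neocortex and 7 virgin and 8 primiparous in the other regions.

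RGS proteins speed the hydrolysis of GTP by the alpha subunit of heterotrimeric G proteins, and so shorten the signal from G-protein-coupled receptors such as those for dopamine, serotonin, opioids and neuropeptides. The family is divided by sequence. The R4 proteins (Rgs2, Rgs4, Rgs8 and Rgs16) are small and hold little beyond the catalytic RGS domain. The R7 protein Rgs7 is stable only in a complex with the atypical beta subunit Gnb5. The R12 group holds Rgs10, a short protein, and Rgs12 and Rgs14, long scaffolds with a second G-alpha-binding motif. Rgs17 and Rgs20 of the RZ group act on G alpha z and on G alpha i. In a piece of tissue, fewer cells of a type and less RNA per cell cannot be told apart.

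The total count per library ranged from 7959192 to 37871854 (median 17623886). Markers of the dissected tissue were highest where they should be for the hypothalamus (9 genes, summed level 732 to 1140 CPM in the hypothalamus and at most 47.0 CPM elsewhere), for cerebellar granule and Purkinje cells, for the dentate gyrus and for the neocortex. The list of amygdala markers was not highest in the amygdala (355 to 487 CPM, against 629 to 855 CPM in the cerebellum), nor was the list of hippocampal CA2 markers highest in the hippocampus (117 to 153 CPM, against 181 to 229 CPM in the hypothalamus), so neither list identified its tissue. The hippocampal library of primiparous animal 413, the hippocampal library of virgin animal 4487 and the hypothalamic library of virgin animal 4490 stood apart in markers of the cerebellum or the thalamus. Some of the values of Rgs8, Rgs16 and Rgs4 that rest on them are also given without them. Choroid plexus markers, whose tissue lies in the ventricles, reached higher sums in single libraries, up to 3980 CPM in the hippocampus (medians of the 2 states 96.1 and 116 CPM) and 3660 CPM in the cerebellum (medians 106 and 66.5 CPM). Of those libraries only that of virgin animal 4487 was left out of the region contrasts, and the part of choroid plexus in the members' levels was not tested. In the neocortex, olfactory bulb markers summed to 58.3 to 305 CPM in virgins and 26.4 to 389 CPM in primiparous females. Their part in the neocortical levels of the members was not tested. Of the virgin animals 2 had 3-digit numbers and 6 had 4-digit numbers, whereas of the primiparous animals 7 had 3-digit numbers and 1 had a 4-digit number. What the number series stands for is not given by the labels or the text of the study's methods (its table of animals was not used here), and it follows the reproductive state closely.

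On GRCm38 (GENCODE M21) 6 of the members lie on chromosome 1. They are Rgs2 (chr1:143999338-144004161, minus strand), Rgs8 (chr1:153653025-153700323, plus strand), Rgs16 (chr1:153740349-153745468, plus strand), Rgs4 (chr1:169741477-169747642, minus strand), Rgs7 (chr1:175059087-175492500, minus strand) and Rgs20 (chr1:4909576-5070285, minus strand). Rgs8 and Rgs16 are neighbours, 40.0 kb apart in the same orientation. The other members are Rgs10 (chr7:128373621-128418758, minus strand), Rgs12 (chr5:34949445-35039644, plus strand), Rgs14 (chr13:55369732-55384687, plus strand) and Rgs17 (chr10:5825663-5922400, minus strand). Exons of 4 members overlap exons of a gene on the opposite strand. The shared part is 10.1% of the exon bases of Rgs16, 5.50% of those of Rgs12, 3.00% (with Atp6v1h) and 2.95% (with Gm17101) of those of Rgs20 and 0.726% of those of Rgs8, and since no source used here says whether counting used strand, reads from these stretches cannot be assigned.

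The sequence just upstream of 4 genes is shown, for Rgs4 and Rgs17 because these were the members repressed in the primiparous hypothalamus, and for Rgs8 and Rgs16 because these neighbours had unlike regional patterns. Each window of 230 bases runs from 250 to 21 bases before the start in the RefSeq promoter table (GRCm38.p6), in the direction of transcription, and capitals mark CCAAT or its reverse complement ATTGG and TATAAA or its reverse complement TTTATA. Windows were found for 8 of the 10 members, all but Rgs14 and Rgs20.
Rgs4: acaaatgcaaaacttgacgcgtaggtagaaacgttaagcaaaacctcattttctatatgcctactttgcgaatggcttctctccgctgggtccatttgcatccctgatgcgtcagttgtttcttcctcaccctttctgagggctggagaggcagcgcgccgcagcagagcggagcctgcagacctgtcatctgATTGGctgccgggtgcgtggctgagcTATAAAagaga
Rgs17: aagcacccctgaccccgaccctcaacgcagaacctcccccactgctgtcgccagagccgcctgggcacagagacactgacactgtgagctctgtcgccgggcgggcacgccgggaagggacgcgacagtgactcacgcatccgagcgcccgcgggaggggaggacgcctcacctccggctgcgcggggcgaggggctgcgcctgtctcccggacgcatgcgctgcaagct
Rgs8: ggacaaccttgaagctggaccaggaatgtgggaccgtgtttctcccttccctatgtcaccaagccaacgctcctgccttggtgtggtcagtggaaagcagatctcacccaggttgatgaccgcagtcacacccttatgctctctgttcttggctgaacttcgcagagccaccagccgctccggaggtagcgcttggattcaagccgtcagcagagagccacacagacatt
Rgs16: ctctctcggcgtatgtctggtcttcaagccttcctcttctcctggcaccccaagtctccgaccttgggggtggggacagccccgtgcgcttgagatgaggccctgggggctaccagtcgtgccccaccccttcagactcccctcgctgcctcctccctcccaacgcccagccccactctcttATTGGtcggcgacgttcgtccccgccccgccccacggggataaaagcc
They lie at chr1:169747663-169747892 (Rgs4, minus strand), chr10:5922421-5922650 (Rgs17, minus strand), chr1:153652787-153653016 (Rgs8, plus strand, the first of its 3 windows) and chr1:153740103-153740332 (Rgs16, plus strand). Rgs4 held both motifs, Rgs16 held 1 CCAAT match, and neither motif was found in the windows shown for Rgs17 and Rgs8, while each of the 2 other Rgs8 windows held 1 CCAAT match. Over all 32851 windows of the same length in the table, 32.2% held CCAAT and 11.8% held TATAAA on either strand, so a match is common and is given as a description. The Rgs17 window was GC-rich (71.3% GC, above 92.6% of windows) and that of Rgs4 was not (52.2% GC, above 50% of windows).

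The first question was where in the brain each RGS gene is expressed. Among the 10 members, regional differences were largest for Rgs14, Rgs4 and Rgs8 and smallest for Rgs7. The ratio of the highest to the lowest regional mean was 399 for Rgs14, 22.8 for Rgs4 and 21.3 for Rgs8. It was 5.33 for Rgs17, 5.0 for Rgs2, 4.45 for Rgs16, 3.52 for Rgs12, 2.69 for Rgs10 and 2.51 for Rgs20, and 1.47 for Rgs7. Of the 100 contrasts between regions (10 members, 10 pairs of regions), 95 passed an adjusted p of 0.05 in edgeR's quasi-likelihood test with Benjamini-Hochberg adjustment over all genes. Most genes differ between regions, and this count is read against the share of all 13016 genes past the same threshold. That share was 81.1% between the hypothalamus and the cerebellum, 73.0% between the hypothalamus and the hippocampus, 77.7% between the hypothalamus and the neocortex and 71.0% between the hypothalamus and the amygdala. It was 78.7%, 79.9% and 80.2% between the cerebellum and the hippocampus, neocortex and amygdala, 67.0% between the hippocampus and the neocortex, 58.7% between the hippocampus and the amygdala, and 62.5% between the neocortex and the amygdala. For 3 of the 10 members, Rgs2, Rgs4 and Rgs8, every library of the highest region lay above every library of the other 4 regions, as did 15.9% of all genes tested for their own highest region.

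**Figure D1:**
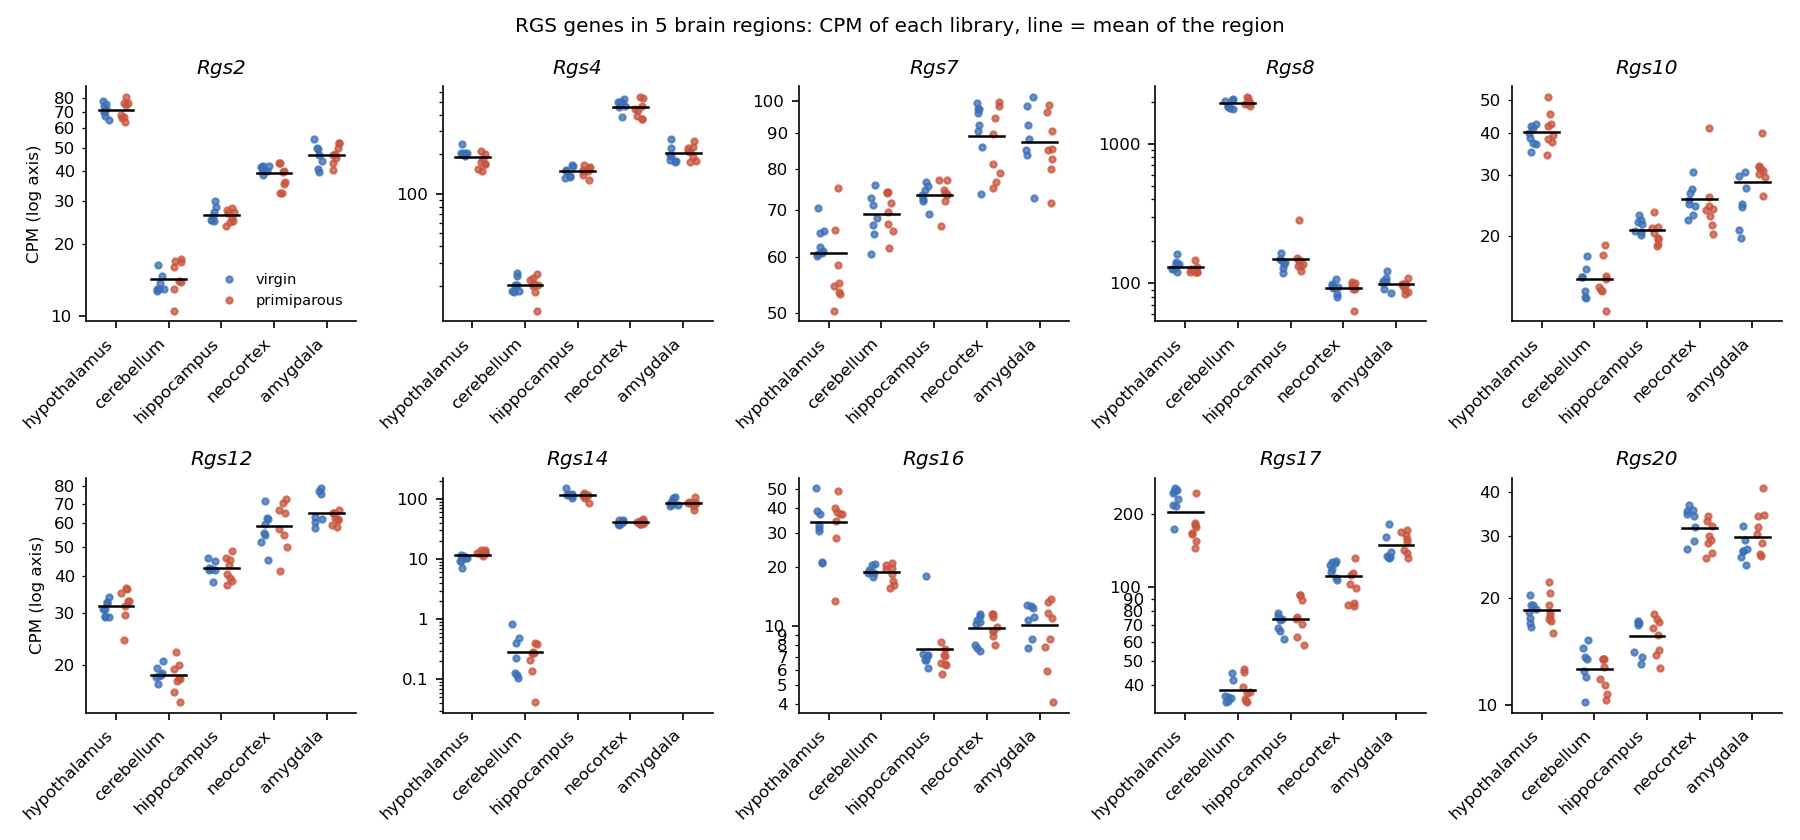
CPM of each RGS gene (log axis) in every library by brain region, virgin in blue and primiparous in red, with a line at the mean of the region. Rgs8 in the cerebellum (1777 to 2177 CPM) and Rgs14 in the cerebellum (0.0420 to 0.821 CPM) lie farthest from the other regions.

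Rgs8, an R4 protein known from Purkinje cells, reached 1969 ± 120 CPM (SD, n = 15) in the cerebellum, with libraries from 1777 to 2177 CPM. The next region was the hippocampus with 150 ± 38.8 CPM (n = 15), which is 12.01-fold lower in the fit (log2 difference 3.59, SE 0.07, adjusted p = 1.87e-57), and 12.8-fold lower without the 3 libraries that stand apart. The hippocampus was above the hypothalamus by a log2 difference of 0.32 (SE 0.07), and by 0.25 (SE 0.05) without those libraries. Means were 131 ± 11.6 CPM in the hypothalamus (n = 16), 98.6 ± 10.3 CPM in the amygdala (n = 15) and 92.6 ± 10.03 CPM in the neocortex (n = 16). The difference between amygdala and neocortex was not past the threshold (log2 difference 0.12, SE 0.07, adjusted p = 0.116 in edgeR). Without the 3 libraries that stand apart the same difference was 0.12 with an adjusted p of 0.0338 in edgeR. That alternative was chosen after seeing the data. The hippocampal mean holds the library of primiparous animal 413, at 283 CPM, whereas the other 14 hippocampal libraries lay between 119 and 164 CPM (mean 140). In that library the summed level of 5 granule cell markers was 345 CPM, against 88.5 to 125 CPM in the others, and that of 6 Purkinje markers was 1580 CPM, against 713 to 914 CPM. None of these markers was at 0, and their part in the Rgs8 level was not tested. Per kilobase of exon, the cerebellar level of Rgs8 was 204 CPM per kb, and the next member there was Rgs7 with 11.5 CPM per kb.

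Rgs4, an R4 protein that acts on G alpha i and G alpha q, was highest in the neocortex, with 462 ± 58.5 CPM (SD, n = 16) and a range of 370 to 549 CPM. Amygdala (205 ± 27.6 CPM), hypothalamus (192 ± 23.5 CPM) and hippocampus (149 ± 12.1 CPM) followed, with overlapping ranges, and each neighbour in this order differed in the fit, by a log2 difference of 1.15 (SE 0.06) between neocortex and amygdala, 0.24 (SE 0.06) between amygdala and hypothalamus, and 0.22 (SE 0.06) between hypothalamus and hippocampus. The cerebellum, with 20.3 ± 3.11 CPM, was 8.08-fold lower than the hippocampus (adjusted p = 1.4e-53). Per kilobase of exon, Rgs4 was the highest member in the hypothalamus (61.9 CPM per kb), hippocampus (48.1), neocortex (149) and amygdala (66.1), by either measure of length. Rgs4 and Rgs8 thus had opposite regional patterns, with a Pearson correlation of -0.95 over the 77 libraries, and of 0.02 once the mean of each group was removed. Libraries of a region share their anatomy, so the first value is a description of regions.

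Rgs2, which acts preferentially on G alpha q, was highest in the hypothalamus at 71.7 ± 5.16 CPM (SD, n = 16; 63.6 to 81.2), above all libraries of other regions. The amygdala had 46.7 ± 4.51 CPM, the neocortex 39.3 ± 3.42 CPM, the hippocampus 26.3 ± 1.79 CPM and the cerebellum 14.3 ± 1.95 CPM. Each step of this order was past the threshold, the smallest being amygdala over neocortex (log2 difference 0.27, SE 0.05, adjusted p = 1.02e-06).

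Rgs16, an R4 gene with a known daily rhythm in the suprachiasmatic nucleus of the hypothalamus, was highest in the hypothalamus at 33.9 ± 9.71 CPM (SD, n = 16). Its libraries spread from 13.6 to 50.7 CPM, the widest relative spread of any member in that region. The cerebellum had 18.9 ± 1.65 CPM, the amygdala 10.2 ± 2.89 CPM, the neocortex 9.87 ± 1.46 CPM and the hippocampus 7.62 ± 2.96 CPM. The difference between amygdala and neocortex was not past the threshold (log2 difference 0.06, SE 0.13, adjusted p = 0.682 in edgeR). The highest hypothalamic library was that of virgin animal 4490, whose 8 thalamus markers summed to 185 CPM, against 64 to 102 CPM in the other 15 libraries, over which the mean of Rgs16 was 32.8 ± 8.91 CPM. Similarly, in the hippocampal library of virgin animal 4487 Rgs16 was at 18.1 CPM and the thalamus markers at 129 CPM, against 5.75 to 8.37 CPM and 51.5 to 69.8 CPM in the other 14 libraries. The part of these markers in the Rgs16 level was not tested. Without the 3 libraries that stand apart, Rgs16 in the hippocampus was lower than in the neocortex by 0.50 on the log2 scale (-0.50, SE 0.12), compared with -0.34 (SE 0.13) when all were used, and the latter call was lost with the length and GC correction and the replicate block (-0.21, adjusted p = 0.171).

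**Figure D2:**
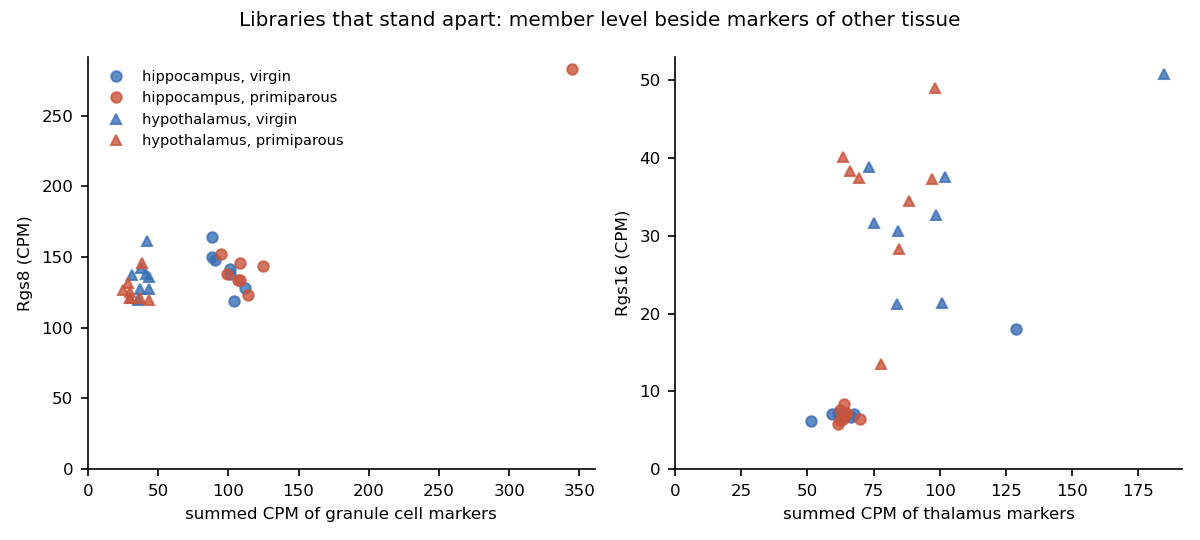
Rgs8 (left, CPM) beside the summed CPM of granule cell markers and Rgs16 (right, CPM) beside the summed CPM of thalamus markers, for each hippocampal (circles) and hypothalamic (triangles) library, virgin in blue and primiparous in red. One hippocampal library is at 283 CPM of Rgs8 and 345 CPM of granule markers, and 1 hypothalamic and 1 hippocampal library have the highest thalamus marker sums, 185 and 129 CPM.

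Rgs7, the R7 member, varied least across the brain. Its mean was 89.2 ± 9.24 CPM in the neocortex (SD, n = 16), 87.6 ± 8.96 CPM in the amygdala, 73.6 ± 2.96 CPM in the hippocampus, 69.2 ± 4.77 CPM in the cerebellum and 60.7 ± 6.65 CPM in the hypothalamus. The difference between neocortex and amygdala was not past the threshold (log2 difference 0.00, with an SE of 0.05 and an adjusted p of 0.966 in edgeR). The means of the other neighbours in this order differed past it, with log2 differences from 0.19 to 0.25, although the ranges of all neighbours overlapped. With a correction for gene length and GC content and the animal as a replicate block, the cerebellum and hippocampus no longer differed (log2 difference -0.02, adjusted p = 0.643).

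Among the R12 genes, Rgs14, which restrains synaptic plasticity in hippocampal CA2 neurons, was highest in the hippocampus with 115 ± 13.7 CPM (SD, n = 15; 84.8 to 151). Levels were 86.5 ± 12.02 CPM in the amygdala, 41.1 ± 2.93 CPM in the neocortex and 11.5 ± 1.94 CPM in the hypothalamus. In the cerebellum the mean was 0.287 ± 0.197 CPM, from 1 to 11 reads per library, so that the cerebellar level rests on few reads. Rgs12, a scaffold with a PDZ domain, was highest in the amygdala (65.1 ± 6.75 CPM) and neocortex (58.8 ± 9.10 CPM), followed by the hippocampus (42.3 ± 3.28 CPM), hypothalamus (31.6 ± 3.08 CPM) and cerebellum (18.5 ± 1.73 CPM). Rgs10, expressed in microglia as well as neurons, was highest in the hypothalamus (40.3 ± 4.10 CPM) and decreased from the amygdala (28.6 ± 5.02 CPM) and neocortex (25.6 ± 4.90 CPM) to the hippocampus (20.9 ± 1.39 CPM) and cerebellum (14.96 ± 1.86 CPM). Every neighbour in the orders of Rgs10, Rgs12 and Rgs14 differed past the threshold, the weakest being amygdala over neocortex for Rgs10 (log2 difference 0.17, SE 0.07, adjusted p = 0.0213). With the length and GC correction and the replicate block, Rgs12 in neocortex and amygdala no longer differed (-0.06, adjusted p = 0.355).

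In the RZ group, Rgs17 was highest in the hypothalamus with 203 ± 38.4 CPM (SD, n = 16), where it ranged from 145 to 254 CPM. It was then 149 ± 16.9 CPM in the amygdala, 111 ± 15.8 CPM in the neocortex, 74.4 ± 10.7 CPM in the hippocampus and 38.0 ± 4.38 CPM in the cerebellum, and each neighbour differed past the threshold. Rgs20 had its highest levels in the neocortex (31.6 ± 3.39 CPM) and amygdala (29.8 ± 4.25 CPM), whose difference was not past the threshold (log2 difference 0.06, SE 0.06, adjusted p = 0.357 in edgeR). Hypothalamus (18.5 ± 1.65 CPM) and hippocampus (15.7 ± 1.84 CPM) were likewise not separated (log2 difference 0.10, SE 0.06, adjusted p = 0.142), and the cerebellum had 12.6 ± 1.49 CPM.

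Of 11 further RGS genes on a list, 7 also passed the filter. Rgs9, an R7 protein of striatal neurons, was highest in the hypothalamus at 68.5 CPM and lowest in the cerebellum at 5.72 CPM, and Rgs3 was highest in the cerebellum at 42.5 CPM. Rgs1, Rgs13, Rgs18 and Rgs21 stayed under 1 CPM in the mean of every region and were not tested.

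The second question was whether RGS genes differ between the reproductive states. In the hypothalamus 3 of 10 members passed the threshold, with Rgs17 and Rgs4 repressed and Rgs14 induced in primiparous females. The same test called 22.6% of all genes in that region, 10.8% as higher and 11.8% as lower in primiparous females, so 3 of 10 is close to the background. Median log2 differences were -0.01 over the 10 members and 0.01 over all genes tested.

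**Figure D3:**
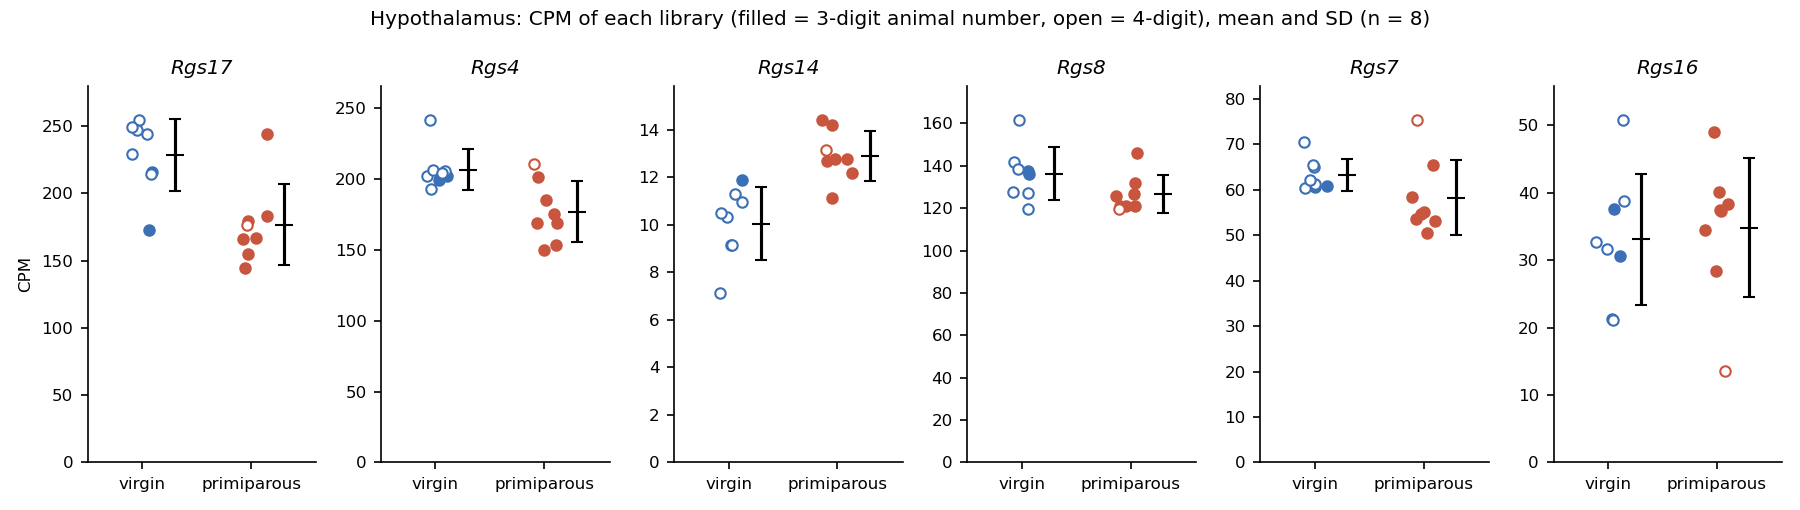
CPM of 6 RGS genes in each hypothalamic library of virgin (blue) and primiparous (red) females, filled for 3-digit and open for 4-digit animal numbers, with the mean and SD (n = 8 each). Rgs17 and Rgs4 lie lower and Rgs14 higher in primiparous females, with overlapping ranges.

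Rgs17 had a lowest, median and highest value of 173, 237 and 254 CPM in the virgin hypothalamus and of 145, 172 and 244 CPM in the primiparous hypothalamus. The groups overlapped, because virgin animal 409 was low (173 CPM) and primiparous animal 418 was high (244 CPM). Means were 228 ± 27.0 and 177 ± 30.0 CPM (SD, n = 8 each), a log2 difference of -0.39 (SE 0.09, adjusted p = 0.00523 by edgeR's quasi-likelihood test), or 1.31-fold lower. In 7 of 8 primiparous libraries the level was under the virgin mean.

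Rgs4 ranged from 193 to 242 CPM in virgins (median 203) and from 150 to 211 CPM in primiparous females (median 172). All virgin libraries but that of animal 4490, which was highest, lay between 193 and 206 CPM. Means were 207 ± 14.7 and 177 ± 21.5 CPM (n = 8 each), with a log2 difference of -0.24 (SE 0.06, adjusted p = 0.00975), or -0.21 without virgin animal 4490 (adjusted p = 0.0263), and 7 of 8 primiparous libraries were under the virgin mean.

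Rgs14 was low in the hypothalamus, with values from 7.14 to 11.9 CPM in virgins (median 10.4) and from 11.1 to 14.4 CPM in primiparous females (median 12.8). All 8 primiparous libraries lay above the virgin mean, and the ranges overlapped only through virgin animals 409 and 4490. The log2 difference was 0.34 (SE 0.10, adjusted p = 0.0201), from a mean of 10.1 ± 1.52 to 12.9 ± 1.05 CPM (n = 8 each).

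These 3 calls were kept when any 1 hypothalamic library was left out, with the largest adjusted p at 0.0132 for Rgs17, 0.0263 for Rgs4 and 0.0447 for Rgs14. They were lost in both fits that adjusted for a property of the libraries. With the number series as a covariate the log2 differences were -0.26 for Rgs17 (adjusted p = 0.302), -0.15 for Rgs4 (0.350) and 0.32 for Rgs14 (0.264), and 3 genes in all were called. With an offset that takes out the dependence of each library on gene length and GC content, they were -0.08 for Rgs17 (adjusted p = 0.327), -0.09 for Rgs4 (0.383) and 0.30 for Rgs14 (0.109), and 379 genes were called. The transcript GC content was 36.9% for Rgs17 and 44.0% for Rgs4, under the median of 49.9% over 12632 genes, and 52.0% for Rgs14. Of the members not called, Rgs7 (36.7%), Rgs2 (43.6%) and Rgs20 (47.8%) were also under that median. Rgs8 (50.5%), Rgs10 (50.7%), Rgs16 (53.5%) and Rgs12 (54.5%) were above it. The part of GC content in the lost calls was not tested. Within the 3-digit series Rgs17 was at 173 and 216 CPM in the 2 virgin libraries and at 145 to 244 CPM (median 167) in the 7 primiparous libraries. For Rgs4 these values were 199 and 202 CPM against 150 to 202 CPM (median 169), and for Rgs14 they were 9.16 and 11.9 CPM against 11.1 to 14.4 CPM (median 12.8). Within the 4-digit series the 1 primiparous library was under all 6 virgin libraries for Rgs17 (176 CPM against 214 to 254 CPM) and above all 6 for Rgs14 (13.1 CPM against 7.14 to 11.3 CPM). For Rgs4 it was inside their range and above their median (211 CPM against 193 to 242 CPM, median 205). The number series and the reproductive state are poorly separated, with only 2 virgin and 1 primiparous animal outside the main pattern.

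**Figure D4:**
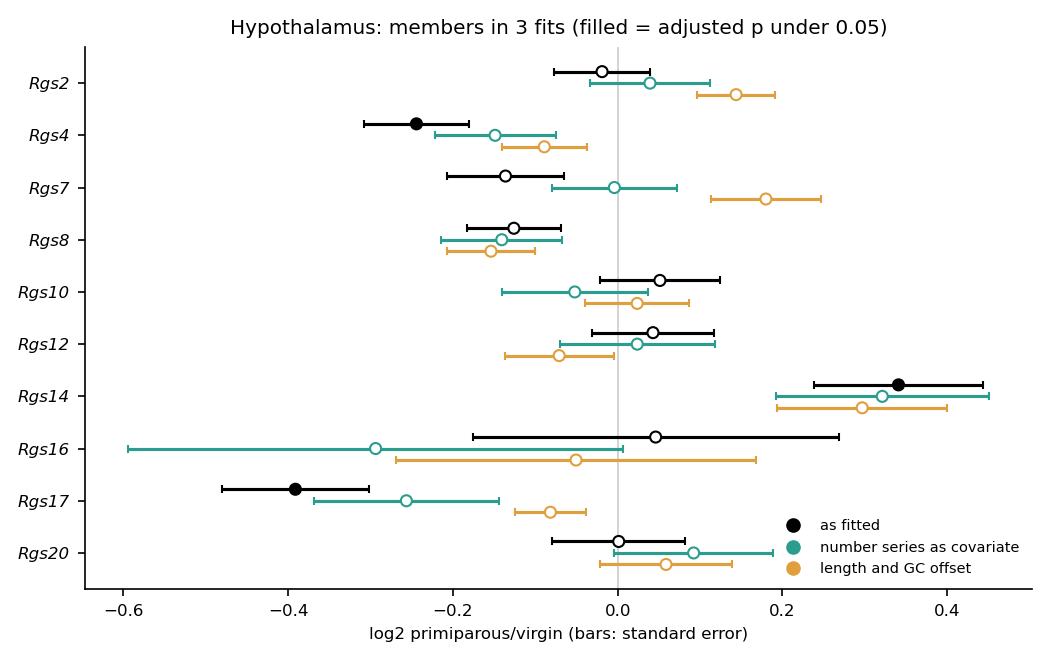
Log2 difference of primiparous against virgin hypothalamus for the 10 RGS genes (bars are standard errors) in 3 edgeR fits, filled where the adjusted p was under 0.05. Rgs17 moves from -0.39 to -0.26 with the number series as a covariate and to -0.08 with the length and GC correction, whereas Rgs14 stays between 0.30 and 0.34.

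The other 7 members did not pass the threshold in the hypothalamus. Rgs8 had 120 to 162 CPM in virgins and 120 to 146 CPM in primiparous females, with a log2 difference of -0.13 (SE 0.06, adjusted p = 0.108), and without primiparous animal 418 it was -0.16 with an adjusted p of 0.0254. For Rgs7 the difference was -0.14 (SE 0.07, adjusted p = 0.162), and without primiparous animal 4493, the highest library at 75.3 CPM, it was -0.20 with an adjusted p of 0.0182. Of all 13016 genes, 4119 were called without animal 418 and 3360 without animal 4493, against 2939 with all libraries. With the length and GC correction the Rgs7 difference was 0.18 (adjusted p = 0.135), on the other side of 0. Rgs16 had a log2 difference of 0.05 with an SE of 0.22, so the 95% interval ran from -0.39 to 0.48. Intervals were narrower for Rgs2 (-0.13 to 0.10), Rgs10 (-0.09 to 0.19), Rgs12 (-0.10 to 0.19) and Rgs20 (-0.16 to 0.16). With the length and GC correction Rgs2 was at 0.14 (SE 0.05, adjusted p = 0.0906 in edgeR), outside the interval given for it. With the number series as a covariate Rgs7 was at -0.004 (SE 0.08). The signs of Rgs2 (0.04, SE 0.07), Rgs10 (-0.05, SE 0.09) and Rgs16 (-0.29, SE 0.30) were reversed in that fit.

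Markers of other tissue and cell types were set beside these results. Of 7 thalamus markers tested in the hypothalamus 0 passed the threshold, and their list summed to 73.3 to 185 CPM in virgins and 63.6 to 98.2 CPM in primiparous females. The choroid plexus list summed to 38.0 to 50.9 and 36.1 to 65.1 CPM, with 1 of 6 genes called (Ttr, log2 difference 1.52). The blood list summed to 25.2 to 53.5 and 32.0 to 103 CPM, with 2 of 3 genes called, both higher in primiparous females. Purkinje markers, which include Calb1, a gene of many hypothalamic neurons, summed to 466 to 558 and 433 to 512 CPM, with 1 of 6 called in each direction. Oligodendrocyte markers summed to 5400 to 6310 and 5160 to 6360 CPM. Markers of the hypothalamus itself summed to 779 to 958 and 732 to 1140 CPM, with 2 of 9 called, both lower in primiparous females (Pmch, -0.56, and Sim1, -0.32). Of 10 circadian clock output genes, which summed to 857 to 910 and 865 to 946 CPM, 3 were higher and 2 lower. The granule cell list summed to 31.6 to 43.8 and 25.0 to 43.8 CPM, with 1 of 5 called (Etv1, -0.39). In the olfactory bulb, neocortex, dentate gyrus and CA2 lists 1 gene each was called, higher in primiparous females (Tbx21, Myl4, C1ql2 and Necab2), and in the amygdala, suprachiasmatic nucleus, immediate early gene, microglia and striatum lists 0 were. Pituitary markers ranged from 1.01 to 185 and from 0.716 to 145 CPM, with 0 of 2 called, and of all these lists the only marker at 0 in every library of a group was Pou1f1, in virgins. Their part in the Rgs differences was not tested.

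In the other regions no member passed the threshold by edgeR, limma-voom or DESeq2. All genes called made up 0.707% of those tested in the cerebellum and 0.0% in each of the hippocampus, neocortex and amygdala, where 961, 1276 and 1544 genes had an unadjusted p under 0.05 in edgeR, limma-voom called 0 in each and DESeq2 called 12, 0 and 54. One fit of the 10 groups called 6, 6 and 142 genes there, and the number series as a covariate 0, 0 and 14. Leaving out 1 library gave up to 1 gene in the hippocampus, 0 in the neocortex and 31 in the amygdala (without primiparous animal 413). The 92 genes called in the cerebellum became 6 without virgin animal 4486 and 903 without primiparous animal 4493, the lowest and highest counts with 1 library left out, and 419 with the length and GC correction. At an unadjusted p of 0.05, edgeR listed 0 members in the cerebellum and in the hippocampus, 1 in the neocortex (Rgs17, log2 difference -0.19, SE 0.09, adjusted p = 0.499) and 1 in the amygdala (Rgs10, 0.32, SE 0.11, adjusted p = 0.255). Rgs10 had 25.4 ± 4.24 CPM in the virgin amygdala (SD, n = 7) and 31.5 ± 3.88 CPM in the primiparous amygdala (n = 8). Rgs8, at 1929 ± 138 CPM in virgin and 2004 ± 98.1 CPM in primiparous cerebellum, had a log2 difference of 0.07 with a 95% interval of -0.03 to 0.16. For every member, the largest difference between reproductive states in any region was smaller than the largest difference between regions, for example 0.39 against 2.40 on the log2 scale for Rgs17 and 0.24 against 4.62 for Rgs4.

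**Figure D5:**
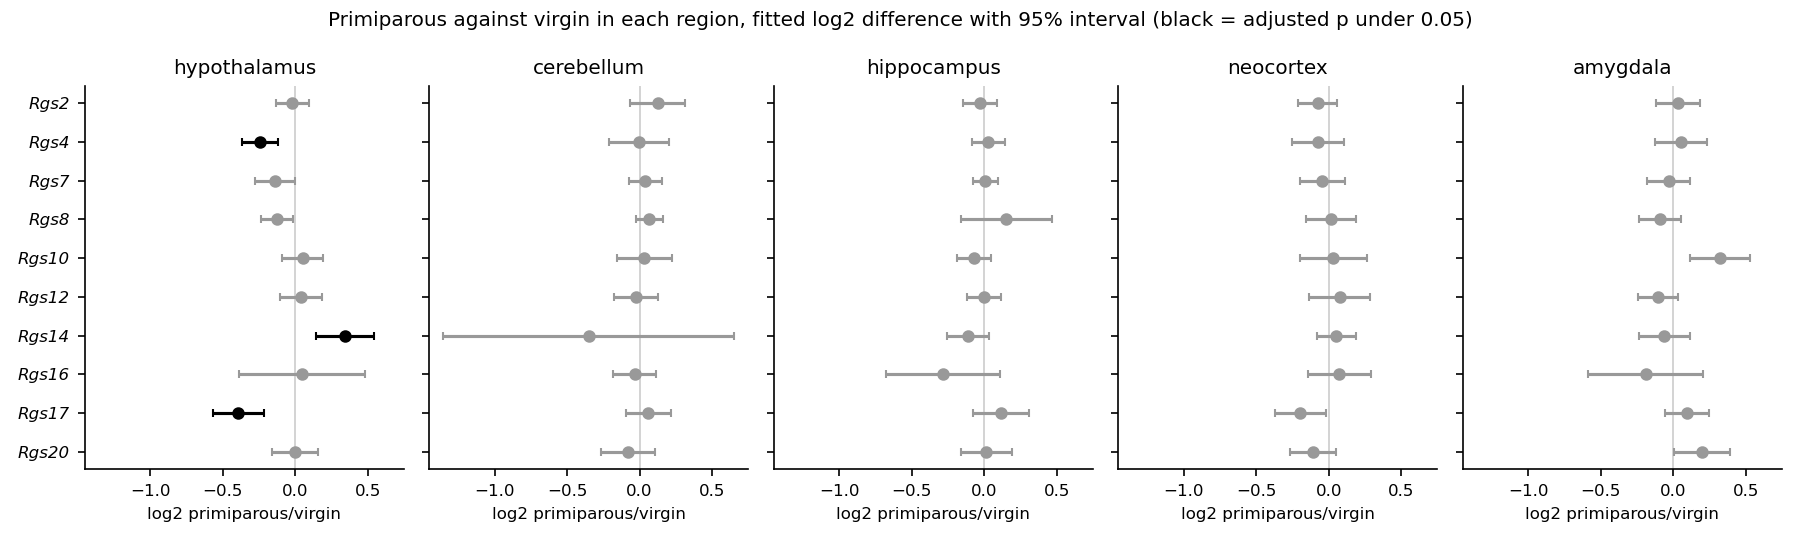
Fitted log2 difference of primiparous against virgin females with its 95% interval for each RGS gene in 5 brain regions, black where the adjusted p was under 0.05 and grey otherwise. Only Rgs4, Rgs14 and Rgs17 in the hypothalamus are black, and Rgs14 in the cerebellum, with 1 to 11 reads per library, has the widest interval.

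Whether the hypothalamic differences depart from those in another region was tested as an interaction. Against the amygdala, Rgs17 (difference of log2 differences -0.48, adjusted p = 0.00721) and Rgs14 (0.41, adjusted p = 0.0254) passed, and 18.2% of all genes did. Rgs17 (-0.52, adjusted p = 0.0146), Rgs14 (0.44, adjusted p = 0.0097) and Rgs4 (-0.29, adjusted p = 0.0275) passed against the hippocampus, where 17.2% of all genes did. Only Rgs17 passed against the cerebellum (-0.46, adjusted p = 0.0151), with a background of 15.5%. Against the neocortex no member and 0.0% of all genes passed by edgeR, although 336 genes had an unadjusted p under 0.05, 1 of them a member, and limma-voom also called 0. The interaction of Rgs17 with the neocortex was -0.19 (adjusted p = 1.0), so the hypothalamic and neocortical differences of Rgs17 were not separated. These 4 tests share the hypothalamic libraries. With the animal as a replicate block, Rgs4 against the hippocampus was no longer called (-0.26, adjusted p = 0.0545), and with the length and GC correction added none of these 6 calls remained. In that fit Rgs17 ranged from -0.12 to -0.07 and Rgs4 was -0.08, whereas Rgs14 was 0.41 against the hippocampus (adjusted p = 0.073) and 0.36 against the amygdala (adjusted p = 0.132).

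RGS proteins work with partners and on G proteins, and these lists were followed in the hypothalamus. Of 52 tested genes on 8 lists (other RGS genes, partners, subunits and effectors), 8 were induced and 11 repressed in primiparous females, against the background of 22.6% called. None of the 7 other RGS genes tested passed in edgeR. Among 5 partners, Rgs7bp, which anchors R7 complexes to the membrane, was repressed (log2 difference -0.37, SE 0.09, adjusted p = 0.00876 in edgeR). So was Gpr158, a receptor that recruits Rgs7 (-0.14, SE 0.05, adjusted p = 0.0347 in edgeR). Ppp1r9b (spinophilin, a scaffold that binds RGS proteins) was induced (0.24, SE 0.07, adjusted p = 0.0199). Gnb5, the obligate partner of Rgs7, had a log2 difference of -0.11 (adjusted p = 0.137).

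The G alpha i/o and z subunits, the substrates of most members, moved in both directions. Gnai1 (log2 difference -0.19) and Gnai3 (-0.24) were repressed, and Gnai2 (0.21) and Gnaz (0.26), the substrate that names the RZ group, were induced, which makes 4 of 5 called. Gna11 (0.21), a G alpha q class subunit, was induced, 1 of 2 tested. Of 4 subunits in the G alpha s/olf and 12/13 list, Gnal (-0.22) and Gna13 (-0.19) were repressed and Gna12 (0.21) was induced. Among 12 beta and gamma subunits, Gng12 (-0.28), Gng4 (-0.18) and Gng2 (-0.23) were repressed and Gnb2 (0.21) was induced. Of the effectors, 2 of 9 adenylyl cyclases were induced, Adcy6 (0.24) and Adcy3 (0.21), and 2 of 8 phospholipase C beta and GIRK channel genes were repressed, Plcb4 (-0.18) and Plcb1 (-0.20). With the length and GC correction only Gnal (-0.21, adjusted p = 0.00535) and Gng4 (-0.18, adjusted p = 0.0334) of these 19 genes stayed past the threshold. With the number series as a covariate 0 of the 19 did (adjusted p = 0.184 to 0.56 in edgeR), while all 19 kept their sign. Under the length and GC correction 18 of the 19 kept it, the exception being Gnai1 (0.01, adjusted p = 0.919). In the cerebellum 1 of the 52 genes passed in edgeR, Gng11 (0.46, SE 0.11, adjusted p = 0.0495, and 0.811 with the number series as a covariate). In the hippocampus, neocortex and amygdala none did. Markers called higher in the primiparous cerebellum were 2 of 10 for microglia (C1qb, 0.62, and C1qa, 0.42) and 1 of 7 for oligodendrocytes (Mbp, 0.42). Of 10 circadian clock output genes 1 was called lower there (Nr1d1, -0.23). These marker calls were also lost with the number series as a covariate. With the length and GC correction they stayed past the threshold in edgeR (adjusted p = 0.0129 to 0.0436), as did Gng11 (0.0299). The part of these markers in the Gng11 difference was not tested.

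The genes most like each member over the 77 libraries were taken by Pearson's r of log2(CPM + 4), which mainly follows the regions. Rgs8 was most like En2 (r = 0.99), a homeobox gene of the mid-hindbrain, and Washc2 (0.99). Rgs14 was most like Rit1 (0.995) and Stum (0.991), Rgs4 most like Nrsn1 (0.982), and Rgs2 most like Ntsr1 (0.97), the neurotensin receptor, and Prrg3 (0.966). Rgs17 was paired with Ttc3 (0.968) and Hdgfl3 (0.958), Rgs12 with Cyp46a1 (0.964) and Brinp2 (0.961), and Rgs10 with Rpl10 (0.951) and Tmem176a (0.940). Values were lower for Rgs20 with Cckbr (0.939) and Kcnh4 (0.927), Rgs16 with Itih3 (0.908) and Btbd11 (0.903), and Rgs7 with Tshz3 (0.882) and Nlk (0.880). After the mean of each group was removed, Rgs17 with Ttc3 and with Hdgfl3 (0.756 and 0.745) and Rgs10 with Rpl10 (0.759) stayed high, whereas Rgs2 with Ntsr1 (-0.03) and Rgs20 with Cckbr (0.04) and Kcnh4 (-0.07) did not. Among the members themselves the highest such value was between Rgs4 and Rgs7 (0.613), then between Rgs4 and Rgs17 (0.492), and the lowest between Rgs12 and Rgs17 (-0.33). All are descriptions. Libraries of different regions share animals, and the genes of 1 library share its depth and its dependence on gene length and GC content.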

How the data were processed

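RNA was measured in 5 brain regions, and the authors aligned 100-base single-end reads to mm10 with Hisat2 and counted uniquely mapped reads with featureCounts (inbuilt annotation of Rsubread). The deposited count table gives raw gene counts, not normalized. A second deposited table, on a log2 scale from iDEP, was used only for gene symbols and for its list of genes. The members and gene lists were chosen with earlier results of these data known, and no list is independent evidence.

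Counts were tested with edgeR 4.0.16 in R 4.3.3 (TMM normalization, robust quasi-likelihood F-test, Benjamini-Hochberg adjustment over 13016 genes). Each region was fitted alone for reproductive state, 1 fit of 10 groups gave the contrasts of regions, and fits of 4 groups gave the interactions. CPM is the count scaled to the total of the library, not by TMM. Depth ranged from 7959192 to 37871854 counts per library, and low members such as Rgs14 in the cerebellum are limited by it. The 95% intervals are 1.96 standard errors on each side. Alternatives were limma-voom (limma 3.58.1), DESeq2 1.42.0, RLE normalization, other filters, the animal number series, a length and GC offset (splines with 4 degrees of freedom each, 97.05% of genes with values), a replicate block, and 1 library left out at a time. Scripts were tested on simulated data.

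Animal numbers in the labels pair the libraries of a mouse across regions. The median correlation of deviations between same-animal libraries lay between -0.0193 and 0.104 for the pairs of regions, and that of libraries from different animals between -0.0103 and 0.0071. Libraries of a group differed by more than sampling noise (smallest chi-square per degree of freedom 2.85 over 259 pairs). All 10 members were named, list genes where past the threshold in the hypothalamus or cerebellum (at most 6 per list), and the 2 genes most like each member, of which 1 is not reported here. Outside this rule, and after their values were seen, Gnb5, Rgs1, Rgs3, Rgs9, Rgs13, Rgs18, Rgs21, Pou1f1 and the marker genes given with the marker lists were named. Marker lists were written from general knowledge. Positions are from GENCODE M21 and promoter windows from RefSeq, GRCm38.p6. Figures were drawn with matplotlib 3.10.9 in Python 3.11.15. The 3 libraries not in the count table were not analysed here.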

Additional observations from a re-analysis of the deposited data

Results flagged for a closer look

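Of 100 groups (10 members, 5 regions, 2 reproductive states), 9 held a library whose gap to its nearest neighbour was large for the range of the group by Dixon's test, and chance gives about 1 in 20. In the hippocampus these were Rgs8 in primiparous animal 413 (283 CPM, next 152 CPM), Rgs16 in virgin animal 4487 (18.1 CPM, next 7.23 CPM) and Rgs14 in virgin animal 4491 (151 CPM, next 119 CPM). In the hypothalamus they were Rgs4 in virgin animal 4490 (242 CPM, next 206 CPM), and in primiparous animal 418 both Rgs8 (146 CPM, next 132 CPM) and Rgs17 (244 CPM, next 183 CPM). In the neocortex primiparous animal 427 had the lowest Rgs8 of its group (63.8 CPM, next 90.6 CPM) and the highest Rgs10 (41.4 CPM, next 26.0 CPM), and in the amygdala primiparous animal 4493 had the highest Rgs10 (39.9 CPM, next 32.0 CPM).

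For 6 pairs of member and region, the hypothalamic difference between states was unlike that of the other region by the interaction test in edgeR. These were Rgs17 against cerebellum (-0.46), hippocampus (-0.52) and amygdala (-0.48), Rgs14 against hippocampus (0.44) and amygdala (0.41), and Rgs4 against hippocampus (-0.29), all as differences of log2 differences. With the animal as a replicate block they were -0.45, -0.50, -0.47, 0.46, 0.43 and -0.26, of which the last was not past the threshold (adjusted p = 0.0545). With the length and GC correction added to the block, none of the 6 was past it in edgeR (adjusted p = 0.073 to 0.793). The values in the same order were then -0.12, -0.11, -0.07, 0.41, 0.36 and -0.08.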

How the results depend on the processing

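For the hypothalamus 3 members were called under limma-voom, DESeq2, RLE normalization, both other filters and 1 fit of 10 groups. The count was 0 with the animal number series as a covariate and 0 with the length and GC offset, and from 3 to 4 when each library was left out. Over all 13016 genes, leaving out 1 library gave from 2014 to 4119 calls, against 2939 with all libraries. The added member was Rgs8 without primiparous animal 418 (4119 genes called) and Rgs7 without primiparous animal 4493 (3360 genes called). The cause of the losses to 0 was not tested. In the other 4 regions the count was 0 under every alternative run. The count of called region contrasts was 95 of 100, and 92 to 96 under the alternatives. For the interactions, the replicate block (the animals being the same in both regions) called 2 members against the hippocampus in place of 3 and changed no other call. With the length and GC offset added to the block the count was 0 against the hippocampus, 0 against the amygdala and 1 against the cerebellum, where the call was then Rgs8 (-0.25, adjusted p = 0.0492) and not Rgs17. Limma-voom called 1 against the amygdala in place of 2. No called difference changed its sign. The length and GC offset with the block moved the median log2 difference of all genes for the hypothalamus minus the cerebellum to -0.12, and for the cerebellum minus the hippocampus, neocortex and amygdala to 0.12, 0.10 and 0.14. With TMM scaling 1 of 50 mean levels moved by over 1 SD (Rgs7 in the hippocampus, 77.3 CPM). Per kilobase, 18 of 50 ranks among the members moved between exon union and longest transcript. Depth limits Rgs14 in the cerebellum.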
